A study of Mus musculus with 2 samples.

Results

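The Zic genes encode zinc-finger transcription factors named for the cerebellum, where they were first found. Islands of Brg1 enrichment were examined at 4 members, Zic1, Zic2, Zic4 and Zic5, in mouse medulloblastoma. The members were taken by symbol from the RefSeq annotation of GRCm38.p6 (mm10), which lists 21627 protein-coding genes on the autosomes and chromosome X, and they stand as 2 pairs of neighbours, Zic1 with Zic4 on chromosome 9 and Zic2 with Zic5 on chromosome 14. Of the 5727 islands in the deposited list, 8 lay in a member or within 5 kb of it, and 17 lay within 200 kb of the pairs. The library came from primary tumours that had formed spontaneously in mice carrying CAG-CreER and Rosa26-SmoM2. SmoM2 is an activated form of Smoothened, the Hedgehog signal transducer, placed at the Rosa26 locus. CreER is a Cre recombinase that tamoxifen activates, driven here by the broadly active CAG promoter. The labels give no treatment and no age, and no source used here says whether tumours were pooled.

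The chromatin was precipitated with the J1 antibody against Brg1, the ATPase of the BAF (SWI/SNF) chromatin remodelling complex encoded by Smarca4, and its paralogue Brm, so that an island can hold either protein. There was 1 ChIP library. The input library, which carries no antibody and comes from tumours of the same genotype, was not analysed here. Nothing below carries an error between animals, and the Poisson intervals cover counting error only. An island is a stretch of the genome that the peak caller SICER found enriched, and its number of reads is the authors' own value, used to describe and rank islands within this list. The islands had a median of 68 reads, a median width of 2200 bp and a median of 6.27 reads per 200 bp, and 472238 reads in all. How deeply the library was sequenced is unknown. The list holds no expression values, so the tissue label was not checked against markers.

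Zic proteins bind DNA through C2H2 zinc fingers related to those of the Gli factors, the end points of Hedgehog signalling. Zic1 is expressed in cerebellar granule neuron progenitors, from which the Shh type of medulloblastoma arises, and its loss in mice leaves a small cerebellum. Loss of ZIC1 together with its neighbour ZIC4 has been linked to Dandy-Walker malformation of the human cerebellum, and ZIC2 mutation to holoprosencephaly. In each pair the genes are transcribed away from each other, so that their starts face a shared stretch of DNA.

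The DNA before the start sites is shown because the islands differed in how they met it: the windows of Zic4 and Zic5 lay inside islands and that of Zic1 did not. Each sequence is the 250 bases before the first RefSeq start site listed for the gene (build GRCm38.p6), written 5′ to 3′ on the strand of the gene. Other starts of these genes were not examined. Capitals mark matches to any of 11 short motifs, on either strand. The Zic1 window is chr9:91365769-91366018 on the minus strand, the Zic4 window chr9:91368722-91368971 on the plus strand and the Zic5 window chr14:122465659-122465908 on the minus strand.
Zic1: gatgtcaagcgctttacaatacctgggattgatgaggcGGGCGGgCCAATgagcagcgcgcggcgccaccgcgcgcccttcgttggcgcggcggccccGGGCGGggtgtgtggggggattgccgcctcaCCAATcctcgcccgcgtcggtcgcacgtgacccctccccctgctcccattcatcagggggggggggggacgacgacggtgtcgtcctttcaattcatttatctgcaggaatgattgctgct
Zic4: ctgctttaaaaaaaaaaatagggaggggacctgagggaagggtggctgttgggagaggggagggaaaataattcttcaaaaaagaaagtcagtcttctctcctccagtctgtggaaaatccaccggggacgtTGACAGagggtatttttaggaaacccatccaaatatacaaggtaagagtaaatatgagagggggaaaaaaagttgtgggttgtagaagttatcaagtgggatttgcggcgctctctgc
Zic5: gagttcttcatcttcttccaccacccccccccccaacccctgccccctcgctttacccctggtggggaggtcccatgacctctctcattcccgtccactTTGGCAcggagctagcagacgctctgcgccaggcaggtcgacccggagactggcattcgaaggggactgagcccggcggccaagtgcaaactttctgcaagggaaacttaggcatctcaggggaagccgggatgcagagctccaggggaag

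The Zic1 window was rich in CpG dinucleotides, with 27 of them and 66.0% G and C. Among 17273 protein-coding genes with such a window, 1 window a gene, 89.6% had fewer CpG and 80.3% had a lower GC content. The Zic4 window, which the island covers whole, held 4 CpG and 44.4% G and C, and only 29.0% of windows had fewer CpG. The Zic5 window, also inside an island, held 11 CpG and 62.4% G and C, beside medians of 10 CpG and 55.6% over all windows. Both windows inside islands thus had fewer CpG than the Zic1 window outside them.

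Few of the motifs occurred in these windows. The Zic1 window held the CCAAT box (CCAAT) at 2 places and the Sp1 site (GGGCGG) at 2 places, motifs that 36.7% and 43.2% of all windows hold. The Zic4 window held 1 match to the Meis motif (TGACAG; 15% of windows), starting 118 bases before the start site. The Zic5 window held 1 nuclear factor I motif (TTGGCA; 11.8% of windows), 151 bases before the start site. None of the 3 windows held the letters searched for Zic (CAGCAGG; 8.27% of windows), Gli (TGGGTGG; 8.42%), the E-boxes CAGCTG (11.8%) and CATCTG (12.4%), the octamer (ATGCAAAT; 1.63%), Sox (ACAAAG; 14.9%) or the TATA box (TATAAA; 12.5%). The capitalised matches did not overlap each other. A match is a description of the letters and not a bound site.

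All 4 Zic genes had an island in the gene or within 5 kb, a criterion met by 16.9% of protein-coding genes (3657 of 21627). The distance from the gene to the nearest island was 0 bp for Zic4 and Zic5, 206 bp for Zic2 and 1195 bp for Zic1. Islands overlapped Zic4 and Zic5 and lay outside Zic1 and Zic2. Of autosomal protein-coding genes, 15.3% were overlapped by an island, 15.4% had an island as near as that of Zic2, and 15.9% as near as that of Zic1.

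Zic1 (Gene ID 22771, chr9:91358058-91365768) held no island. Its nearest island was chr9:91366963-91369962, with 85 reads (exact Poisson 95% interval 67.9 to 105), which lay before the gene, 1195 bp from its start site. The promoter window of Zic1 therefore lay outside every island. The next islands were 6296 bp beyond the other end of the gene and 6995 bp before its start, both outside the 5 kb limit.

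Zic4 (Gene ID 22774, chr9:91365631-91389351) carried 4 islands along its 23721 bp, and they covered 56.5% of the gene. The island of 85 reads shared with Zic1 lay over the RefSeq start site of Zic4, chr9:91368972, and over its whole promoter window. The annotated extent of Zic4 begins before that start site, at 91365631, outside that island, and overlaps the start of Zic1. By that extent the same island is inside Zic4. The largest of the 4, chr9:91372763-91378962, held 171 reads (146 to 199). It was followed by chr9:91380763-91382162 with 45 reads (32.8 to 60.2) and by chr9:91385163-91387962 with 79 reads (62.5 to 98.5). The interval of the largest did not overlap those of the other 3. The difference was one of width: the 4 islands were 3000, 6200, 1400 and 2800 bp wide and held 5.67, 5.52, 6.43 and 5.64 reads per 200 bp. Reads in 98.0% of all islands were fewer than in the island of 171 reads, against 5.64% for the island of 45 reads.

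Few genes of that size carried as many islands. Of protein-coding genes of any length, 0.555% (120 of 21627) had 4 or more islands in the gene or within 5 kb. Among those of 20 to 30 kb the share was 0.161%, or 4 of 2478: Zic4, Foxo6, Ctc1 and Rgmb. The length class was set, and the other genes named, after their values were seen.

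Zic5 (Gene ID 65100, chr14:122459160-122465658) was met by islands at both ends. The island chr14:122462779-122466178, with 91 reads (73.3 to 112), covered its start site and promoter window. The island chr14:122454979-122459378, with 116 reads (95.9 to 139), reached across the far end of the gene, and together the 2 covered 47.7% of Zic5. The island of 156 reads (132 to 182) at chr14:122449379-122454178 lay 4982 bp beyond that end, just inside the 5 kb limit, and overlapped the end of the lncRNA Gm5089 from which, per its RefSeq windows, Gm5089 is transcribed. A gap of 800 bp parted it from the island of 116 reads. That is the smallest gap between any 2 islands in the list, and it also occurs between 2 other islands near this pair. Joined, the islands of 156 and 116 reads formed 10 kb with 272 reads. With 3 islands at 6499 bp, Zic5 was 1 of 3 such genes among 2890 of 5 to 10 kb (0.104%), with Rdh5 and Senp3. Over all lengths 1.29% of genes had 3 or more. This length class, too, was set after the values were seen.

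Zic2 (Gene ID 22772, chr14:122475384-122480328) held no island, but the island chr14:122471179-122475178 ended 206 bp before it. This island held 143 reads (121 to 168) over 4000 bp. It lay wholly within the lncRNA 2610035F20Rik (chr14:122470377-122475199), so it cannot be told apart whether it belongs with that transcript or with Zic2. Its density of 7.15 reads per 200 bp was above that of 76.2% of islands, and its reads stood at percentile 92.6 among the 95 islands of the same width. From Zic5 it lay 5521 bp away, just outside the 5 kb limit. On the other side of Zic2 the nearest island, chr14:122488379-122491778 with 129 reads (108 to 153), lay 8051 bp away inside Pcca, the gene of a propionyl-CoA carboxylase subunit.

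**Figure D1:**
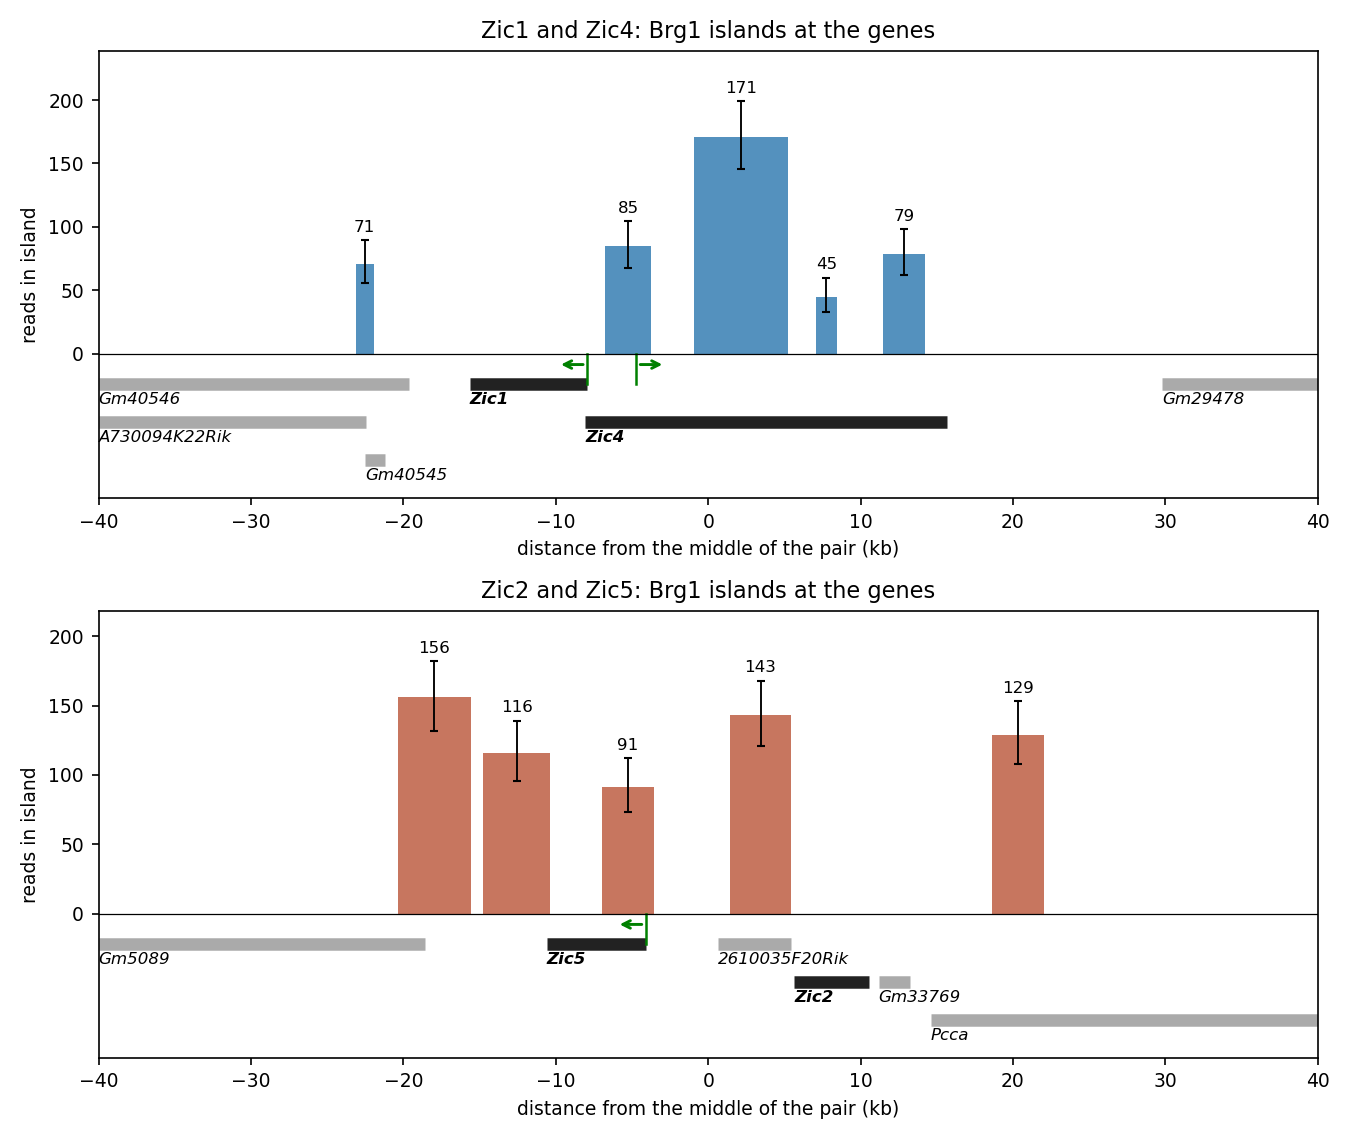
Reads in each Brg1 island (bars to scale in width, height in reads, error bars exact Poisson 95% intervals) against distance in kb from the middle of the pair, for Zic1 with Zic4 (top) and Zic2 with Zic5 (bottom). Black bars below are the Zic genes, grey bars other genes without pseudogenes and snRNA genes, and green arrows RefSeq start sites where listed. Islands of 45 to 171 reads lay along Zic4 and none in Zic1, and islands of 91 and 116 reads met the ends of Zic5 while that of 143 reads stopped short of Zic2.

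The space between the facing genes held island signal in both pairs. Between the listed start sites of Zic1 and Zic4, whose annotated extents overlap, lay 3203 bp. An island covered 2009 bp of it (62.7%), on the side of Zic4. Between Zic5 and Zic2 lay 9725 bp, of which 2 islands covered 4520 bp (46.5%): the edge of the island over the Zic5 start and the whole of that before Zic2. An island lay between the starts in 14.5% (124 of 855) of head-to-head protein-coding neighbours whose listed starts were 1 to 15 kb apart, a comparison added after seeing the data. That set includes Zic1 with Zic4 but not Zic2 with Zic5. For the overlap of promoter windows with islands, each window was extended by 50 bases from the start site into the gene. Of the 3 Zic promoter windows so extended, 2 overlapped an island, against 8.33% (1439 of 17273) of protein-coding genes. For Zic4 this rests on the first listed start, since its annotated extent begins outside the island.

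Both Zic neighbourhoods were dense in islands. Within 200 kb of Zic1 and Zic4 there were 7 islands, or 16.2 per Mb, and within 200 kb of Zic2 and Zic5 there were 10, or 23.7 per Mb, against 2.32 per Mb over the autosomes. Islands covered 4.59% and 10.5% of these windows, against 0.575% of the autosomes. A single autosomal protein-coding gene had a median of 1 island in the gene and 200 kb on each side, and the highest number was 25. Of those genes 2.65% had 7 or more and 0.494% had 10 or more. Among genes of up to 50 kb, closer to the 31294 and 21169 bp that the pairs span, the shares were 2.54% and 0.389%. Neighbouring genes share islands, so these genes are not independent of each other, and they include the Zic genes and their neighbours.

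**Figure D2:**
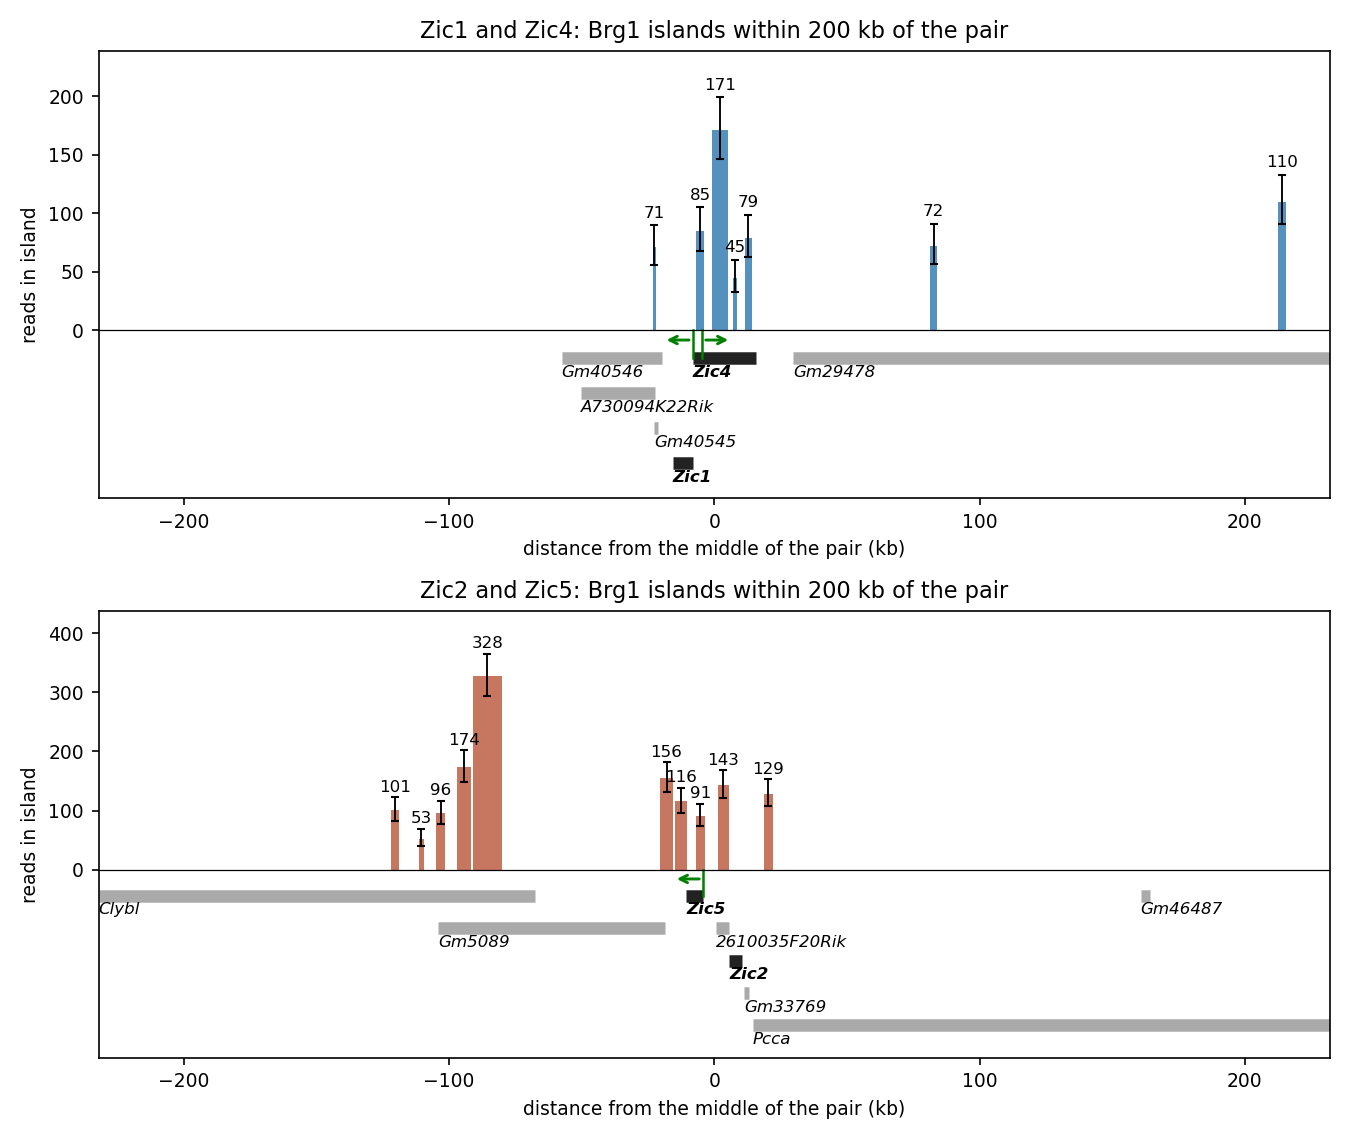
Reads in each Brg1 island (bars, error bars exact Poisson 95% intervals) against distance in kb from the middle of the pair, with 200 kb shown on each side of both pairs. Bars below are Zic genes (black) and other genes (grey, without pseudogenes and snRNA genes), and green arrows are listed start sites. A group of 5 islands of 53 to 328 reads lay in Clybl on the Zic5 side of its pair, and beyond Zic2 the island of 129 reads in Pcca was the only one.

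Each pair had 5 islands with 50 kb on each side, and the placement differed further out. Around Zic1 and Zic4, 4 of 7 islands lay inside Zic4. The fifth, chr9:91350563-91351762, held 71 reads (55.5 to 89.6) and met 3 lncRNA genes, Gm40546, A730094K22Rik and Gm40545. It was narrow, at 1200 bp, and its 11.8 reads per 200 bp exceeded the density of 99.3% of all islands. The other 2 lay in the long lncRNA gene Gm29478, with 72 reads (56.3 to 90.7) 65.8 kb from Zic4 and 110 reads (90.4 to 133) 197 kb from it.

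Around Zic2 and Zic5, 5 of the 10 islands lay in Clybl, the gene of a mitochondrial citramalyl-CoA lyase, between 69.4 and 108 kb from Zic5. In order towards Zic5 they held 101, 53, 96, 174 and 328 reads. The last 3 also overlapped Gm5089, the lncRNA gene that reaches from Clybl towards Zic5: that of 96 reads crossed its end and the other 2 lay within it. The island of 328 reads (293 to 365), chr14:122378779-122389778, was 11 kb wide and ranked 27 of 5727 by reads. Its density of 5.96 reads per 200 bp was lower than the list's median. A gap of 800 bp parted it from the island of 174 reads (149 to 202), and joined they made 17.0 kb with 502 reads, the 5th widest stretch in the list once islands at most 1000 bp apart were joined. Whether the islands in Clybl, Gm5089 or Pcca act on any Zic gene was not tested.

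The islands near the Zic genes were wide, and their read density was ordinary for the list. Of the 17, 15 had at least the list's median of 68 reads and 11 were at or above its upper quartile of 86 reads. Their median was 101 reads over 3400 bp. The median density was 6.43 reads per 200 bp, and 8 of 17 were below the median of the list. The 6 islands that overlapped a Zic gene mostly stood lower. Along Zic4, 26.1%, 21.2%, 55.3% and 25.7% of the list was less dense, in order of position. At Zic5 the shares were 13.0% and 15.8%. Set against islands of the same width, the median percentile by reads of all 17 islands was 53.8. For the 6 that overlapped a Zic gene the percentiles were 52.9, 40.9, 4.78 and 46.8 along Zic4, and 34.1 and 38.4 at Zic5. At least 86 reads were found in 9 of the 10 islands around Zic2 and Zic5 and 2 of the 7 around Zic1 and Zic4. The sums of reads were 1387 and 633, over 44.2 and 19.8 kb of islands, so the mean density was 6.28 reads per 200 bp around Zic2 and Zic5 and 6.39 around Zic1 and Zic4.

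**Figure D3:**
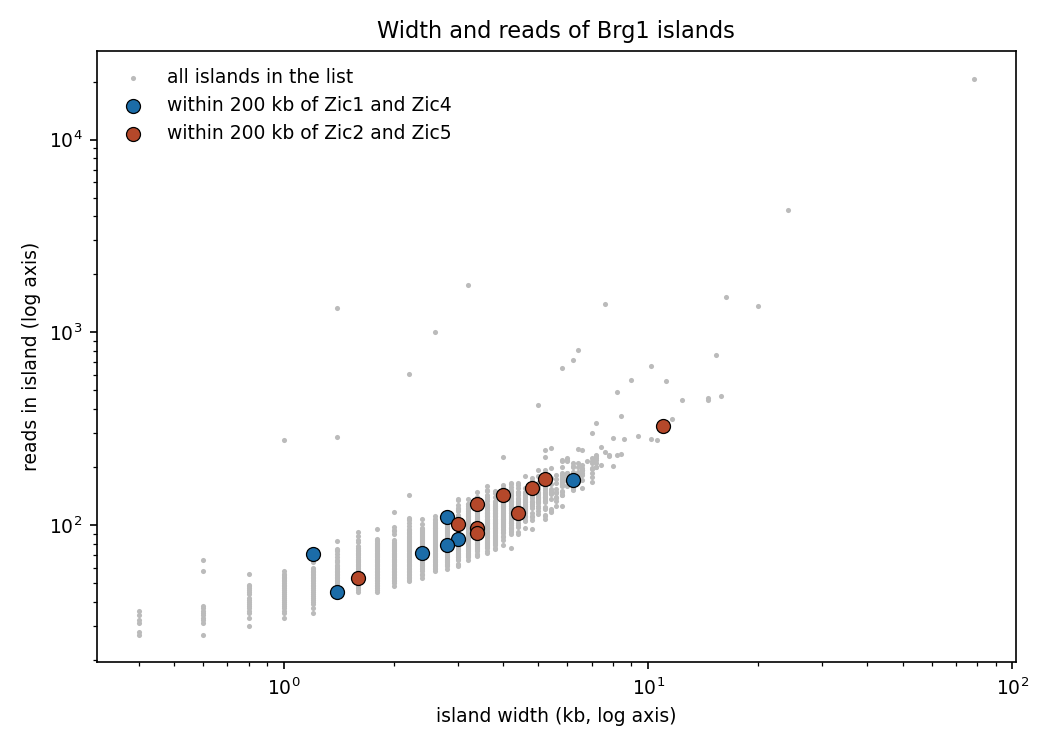
Reads in an island against its width in kb, both on log axes, for all islands in the list (grey) and the 17 islands near the Zic pairs (blue, Zic1 and Zic4; red, Zic2 and Zic5). The Zic islands follow the band of the list, from 45 reads at 1.4 kb to 328 reads at 11 kb, and the islands of 71 reads at 1.2 kb, 110 reads at 2.8 kb and 129 reads at 3.4 kb lie near its upper edge.

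Other loci with neighbouring developmental regulators mostly had fewer islands. Of 15 such pairs listed, 11 spanned at most 200 kb and were counted in the same way. Nkx2-2 stands in more than 1 of them, with Nkx2-4 and with Pax1, so the 11 pairs are not all separate loci. The 11 pairs had a median of 1 island, with 0 at Dlx1 and Dlx2, at Dlx5 and Dlx6, and at Foxc2 and Foxl1. The number was 3 at Olig1 and Olig2, 4 at Barhl1 and Ddx31 and 7 at Lhx1 and Aatf, which equals that of Zic1 and Zic4. None had 10 or more. The partner gene in some of these pairs is not a regulator but a neighbour, and their spans differed, so the numbers are a description.

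**Figure D4:**
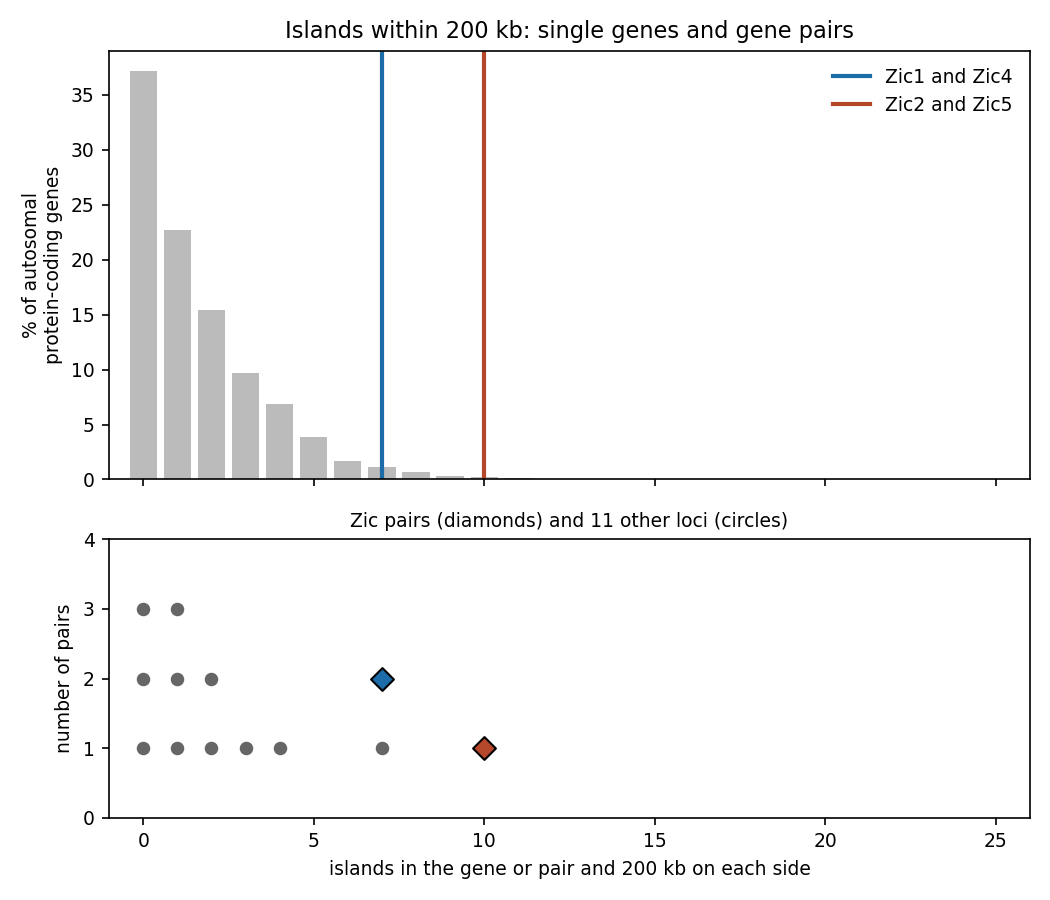
Number of islands in a gene or pair and 200 kb on each side: share of autosomal protein-coding genes in percent (top, grey bars; lines mark the Zic pairs) and single pairs (bottom; diamonds, Zic pairs; circles, 11 other pairs, stacked). The Zic pairs stand at 7 and 10, where the median gene has 1 island.

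Among 6 relatives of the Zic genes, the Gli and Glis zinc-finger genes, 3 had an island in the gene or within 5 kb (50%, Wilson 95% interval 18.8 to 81.2, against 16.9% of all genes). Gli1 had 1, of 131 reads, Gli2 had 2, the larger of 93 reads, and Glis3 had 1 of 61 reads. Gli3, Glis1 and Glis2 had none. The absence of an island says only that the region did not pass the caller.

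Transcription factors of granule neuron progenitors had islands in 10 of 15 (66.7%, Wilson 95% interval 41.7 to 84.8, against 16.9% of all protein-coding genes of any length). The bHLH factor Atoh1 had 2 islands, the larger of 89 reads, which is near the 85 reads of the Zic1 and Zic4 island. Barhl1 had 2 with up to 201 reads, Pax6 1 of 132, Meis1 3 with up to 192, Mycn 1 of 94, Sox11 1 of 117 and En2 1 of 53. The nuclear factor I genes Nfia, Nfib and Nfix had 18, 3 and 7. No island met the criterion at Meis2, En1, Lhx9, Pax3 or Insm1. In a list of genes that act with Zic proteins or in Hedgehog signalling, 6 of 10 had islands (60%, Wilson 95% interval 31.3 to 83.2, against the same 16.9%): Gli1, Gli2 and Atoh1 as above, Ptch1 with 5, Ccnd1 with 2 and Sufu with 3. Without islands were Gli3, Wnt7a, Bmp4 and Kif7. The lists share genes, and over the 27 distinct genes 16 had an island (59.3%, against 16.9%). The Wilson intervals treat listed genes as independent draws, whereas the lists were chosen with earlier results known. Many of these genes are much longer than the Zic genes, and a longer gene meets more islands.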

How the data were processed

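Brg1 and Brm binding was measured by ChIP-seq in 1 library, and the input library was not analysed here. Per the labels' protocols, a NEBNext kit and Illumina HiSeq sequencing were used. Per the submitters' processing notes, the tools were Bowtie 0.12.7, Picard 1.127 and SICER 1.1, with builds mm10 and mm9 and no role stated for each. No source used here gives the SICER settings or the use of the input. The deposited value of each island was taken as a read count, unscaled for depth or width, because the values are whole numbers that grow with width. The file has no header.

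File positions were read as 0-based first and last bases and are printed 1-based. They were treated as mm10: with positions as deposited, 1861 islands came within 1 kb of where a coding gene begins or ends, against 575 and 501 after shifts of 50 and 200 kb. Gene extents and promoter windows come from RefSeq on GRCm38.p6. The length of an autosome was taken to its last gene end. The extents carry no strand, and Zic2 has no promoter window. Islands were assigned to genes by an overlap of at least 1 bp with the gene extended by 5 kb, or with the pair extended by 200 kb, in Python 3.11.15 with pandas 2.3.3. Poisson and Wilson intervals were computed with scipy 1.17.1. The counting was checked on simulated islands. There was no replicate, so no test between conditions was made, and counts of genes with an island are set against the share of all protein-coding genes.

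The text names the members, the islands and genes within 200 kb of the pairs, and members of the fixed lists. Other genes and islands named, with those between 200 and 500 kb from the pairs, were chosen after their values were seen. The members, lists and motifs were chosen with earlier results of these data known. A further gene chosen for the lists was left out of them and is not reported here. The protein comparison that was planned was not made. The alternatives were other windows, islands of higher read count, midpoints, all annotated genes, joined islands and start sites in place of gene extents.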

Additional observations from a re-analysis of the deposited data

How the results depend on the processing

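No paired analysis was possible because there was 1 ChIP library. Of 33 alternative values, 18 stayed within 1.5 times the count reported or within its interval. The other 15 include the distances to island midpoints and the percentile among islands of the same width, which are other measures. The number of Zic genes with an island was 3 or 4 with each other window, read threshold and midpoint setting: Zic1 dropped out with a 1 kb window, and also with islands of at least 86 reads. It was 2 when a listed start site had to lie within 1 kb of an island (chosen after seeing the data), where Zic2 could not be counted. With 500 kb on each side the Zic1 and Zic4 pair had 13 islands, and with islands of at least 86 reads 2. The Zic2 and Zic5 pair had 5 islands with 50 kb on each side, since those in Clybl lie further out, and 9 with islands of at least 86 reads. The share of all protein-coding genes with an island was 15.1%, 18.9% and 33.1% with windows of 1, 10 and 50 kb, 9.66% and 5.21% with islands of at least 68 and at least 86 reads, and 11.3% over all annotated genes. Measured from the nearer gene end to the island midpoint, the nearest island was 2694 bp from Zic1, 2206 bp from Zic2, 2789 bp from Zic4 and 1180 bp from Zic5. The median percentile of the 17 islands was 55.3 by density and 53.8 by reads among islands of the same width. With 1 library and an unknown total depth, a region under the caller's threshold cannot be told from a region without Brg1.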

Other observations

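Further islands lay between 200 and 500 kb from the pairs. On chromosome 9, a group of 3 in a stretch with no annotated gene lay 216 to 226 kb from Zic1, just outside the limit used above. Its largest island, chr9:91123163-91131762, held 278 reads (exact Poisson 95% interval 246 to 313) over 8600 bp, more than any island within 200 kb of Zic1 and Zic4 and more than 99.4% of the list. The other 2 held 103 and 76 reads. Beyond Zic4, an island of 80 reads lay in Gm29478 at 201 kb, and islands of 70 and 124 reads outside any annotated gene at 263 and 407 kb.

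On chromosome 14, Clybl carried 3 more islands between 225 and 245 kb from Zic5, of 59, 165 and 96 reads, which made 8 in the gene. An island of 51 reads lay at Tm9sf2, 351 kb from Zic5. On the other side Pcca, a gene of 405580 bp lying just beyond Zic2, had 2 islands, that of 129 reads at the end near Zic2 and one of 135 reads (113 to 160) 402 kb from the pair.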
